A study of Rattus norvegicus with 40 samples.

Results

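The genes described here encode 6 matricellular and provisional matrix proteins: Tnn (tenascin-N, also called tenascin-W), Thbs4 (thrombospondin-4), Postn (periostin), Spp1 (osteopontin), Fn1 (fibronectin) and Sparc (osteonectin). They were followed in rat carotid arteries 1 and 4 days after balloon injury. All probe sets that the platform annotation gives to exactly 1 of these symbols were taken, which were 13 of the 8740 probe sets left after control probe sets were set aside, for 6 of 4736 genes. Tnn, Thbs4, Postn and Spp1 had 1 probe set each, Fn1 had 5 and Sparc had 4. Of the 13, 10 were tested: 3 dim Fn1 probe sets fell under a filter that left out the 33.3% of probe sets with the lowest mean log2 intensity.

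The arteries came from male Wistar-Kyoto rats 3 months old, and each of the 40 Affymetrix expression arrays held RNA from the vessels of 3 rats pooled together. Left common carotids were injured with a balloon catheter, and pluronic gel was then laid on their outer, adventitial side, either plain (left gel) or carrying recombinant tissue plasminogen activator at 20 nmol/kg (left tPA). Uninjured right carotids of animals treated in these ways formed the right gel and right tPA groups. Each of these 4 kinds of artery had 3 arrays on day 1 and 3 on day 4. Left carotids of sham-operated rats had 4 arrays on day 1 and 6 on day 4, and left carotids of intact, unoperated rats had 6. No label gives the sham animals a gel, so in the comparison of left gel with sham arteries the balloon injury and the gel cannot be told apart. No label says which right and left vessels came from the same rats.

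Matricellular proteins are secreted into the matrix without being its main scaffold, and act by binding cell surface receptors, growth factors, proteases and collagens. Provisional matrix is the temporary scaffold, rich in fibronectin, fibrin and hyaluronan-binding proteoglycans, that forms in a wounded tissue and on which cells attach and migrate. In an artery stripped by a balloon, medial smooth muscle cells and adventitial fibroblasts are known to take up an activated, matrix-producing state, and macrophages are a further known source of osteopontin and fibronectin.

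Intensities are the deposited values, scaled to nearly the same trimmed mean on every array (500.3 to 500.8). A difference between groups is given in log2 units, with the group named first taken as the minuend, and the value after ± is its standard error in the fit. Adjusted p-values are those of limma over 5827 probe sets, and a probe set was called at an adjusted p under 0.05. The p-values measure only the spread between arrays. The share of all probe sets that separate groups without overlap was not counted. Statements that arrays do not overlap therefore describe the named arrays only. In pooled vessel RNA, fewer cells of a type and less RNA per cell cannot be told apart. Where cell type markers are given, counts are over tested genes, and summed intensities cover every listed gene on the array. The sums thus hold untested genes too for lymphocyte (9 genes), adipocyte (7) and skeletal muscle (11) markers.

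Earlier results of these data set 4 tPA arrays aside. By correlations between arrays over the tested probe sets, each probe set centred on its mean, all 12 tPA arrays were nearer to another group than to their own, so that this measure alone does not single out the 4. The array labelled right tPA day 1 replicate 2 had a mean correlation of -0.0827 with its own group and 0.467 with left gel day 4. The array labelled left tPA day 4 replicate 1 had -0.23 with its own group and 0.218 with sham day 4. The array labelled right tPA day 4 replicate 1 had -0.0818 with its own group and 0.254 with left tPA day 1, and that labelled left tPA day 1 replicate 2 had 0.00188 and, with right gel day 4, 0.179. The other 8 tPA arrays had -0.0114 to 0.174 with their own groups and 0.112 to 0.406 with the nearest other group. An exchange of left and right vessels among the tPA labels was not tested, and if one occurred the left and right tPA values below would change meaning. Labels were kept as deposited, and results that rest on these arrays are given with and without them. That choice rests on the measured outcome, so the values without them describe the remaining arrays only. On right gel day 1 replicate 3, which had -0.0898 with its own group, 6.57% of the probe sets lay at the intensity floor, against 15.6 to 25.2% on the other arrays.

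The 4 genes that were higher in left gel arteries on day 4 are shown first by the 250 bases before the start used for each gene, so that the windows can be compared. The sequences are those of RefSeq on the GRCr8 build, read 5′ to 3′ on the strand of the gene. The Tnn window lies at chr13:74919790-74920039 (minus strand), the Thbs4 window at chr2:25760346-25760595 (minus), the Postn window at chr2:140677811-140678060 (plus) and the Spp1 window at chr14:5619805-5620054 (minus). The Tnn and Thbs4 windows lie directly before the annotated gene. The Postn and Spp1 windows lie inside it (chr2:140677774-140709304 and chr14:5613569-5620695), so the starts used for them are not the outer gene boundary. Capitals mark CATTCC, the core of the element bound by TEAD factors, or its reverse complement.
Tnn: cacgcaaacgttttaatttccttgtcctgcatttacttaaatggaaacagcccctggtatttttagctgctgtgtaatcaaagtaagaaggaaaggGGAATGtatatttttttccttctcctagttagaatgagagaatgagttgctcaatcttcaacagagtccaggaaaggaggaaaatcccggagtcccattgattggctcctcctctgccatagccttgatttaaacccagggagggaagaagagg
Thbs4: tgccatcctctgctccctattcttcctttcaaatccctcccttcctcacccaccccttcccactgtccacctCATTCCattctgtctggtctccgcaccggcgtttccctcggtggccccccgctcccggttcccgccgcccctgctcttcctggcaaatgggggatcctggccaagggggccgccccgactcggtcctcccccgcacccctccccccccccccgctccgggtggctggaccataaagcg
Postn: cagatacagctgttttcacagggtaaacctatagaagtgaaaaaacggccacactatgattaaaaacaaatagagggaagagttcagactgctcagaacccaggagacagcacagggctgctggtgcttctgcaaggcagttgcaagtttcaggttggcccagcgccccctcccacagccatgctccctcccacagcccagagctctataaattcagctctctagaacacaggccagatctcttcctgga
Spp1: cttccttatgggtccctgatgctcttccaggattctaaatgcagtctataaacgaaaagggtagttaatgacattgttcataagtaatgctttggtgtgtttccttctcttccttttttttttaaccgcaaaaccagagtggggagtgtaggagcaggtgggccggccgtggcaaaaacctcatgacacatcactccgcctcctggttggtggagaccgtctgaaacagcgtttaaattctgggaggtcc
The CATTCC letters were present at 154 to 149 bases before the Tnn start and at 178 to 173 bases before the Thbs4 start, and the Sparc window had a match at 33 to 28 bases before its start. Of 33469 rat promoter windows of this length, 12.1% hold CATTCC on either strand, as did 3 of the 5 member windows that could be read. TATAAA, the TATA box core, matched Postn at 44 to 39 bases and Spp1 at 204 to 199 bases before the starts used here, which lie inside the annotated genes. It matched 12.9% of all windows. CAGACA, which contains the core that SMAD proteins bind, matched Thbs4 and Sparc and 17.2% of all windows. TGANTCA, the AP-1 site, matched 0 of the 5 member windows and 6.34% of all windows, and the CArG box of serum response factor matched 0 of the 5 and 1.5%. All motifs were searched on both strands, the 3 CATTCC matches do not overlap any other match, and a match describes letters in a window only.

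On day 4, 4 of the 6 genes were higher in the injured, gel-covered artery than in sham arteries. Tnn was 34.9 times, Spp1 3.51 times and Postn 2.90 times the sham level. Thbs4 was 31.8 times that level, a size that rests on 4 of 6 sham arrays at the intensity floor of 23.3: its log2 difference was 4.99, and 3.79 with a floor of 79.2. Fn1 and Sparc did not pass. Of the 10 tested member probe sets 4 were called, all higher, where 19.2% of all probe sets were called, and their median difference was 1.06 against 0.0181 over all tested probe sets.

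Tnn, an extracellular glycoprotein of the tenascin family that is otherwise known from bone, stem cell niches and tumour stroma, differed most clearly. Intensities in sham arteries of day 4 ran from 62.3 to 125, with a median of 98.1. The left gel arrays of that day read 3369, 2779.3 and 3624.4. All 3 left gel arrays lay far above all 6 sham arrays, with no value between 125 and 2779.3 in either group. The difference was 5.13 ± 0.58 (limma adjusted p = 7.15e-07), a 34.9-fold rise with a 95% interval of 15.3 to 79.6.

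The rise of Tnn was a matter of day 4. On day 1 left gel arrays read 135.8, 73.8 and 154.5 and sham arrays 75.3, 85.7, 89.5 and 85.7, so that the groups overlapped. The difference on day 1 was 0.46 ± 0.63 (adjusted p = 0.85). Between the 2 days left gel arteries differed by 4.81 ± 0.67 (28.0-fold, adjusted p = 0.000104), and the test of the injury difference by day, day 4 minus day 1, gave 4.66 ± 0.86 (adjusted p = 0.00159). In left gel arteries of day 4 against day 1, Tnn was the 1 member probe set called, where 3.21% of all were. In the test by day 2 of the 10 were called, Tnn and Thbs4, where 2.42% of all were.

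Thbs4, a pentameric calcium-binding thrombospondin found in tendon, muscle and injured tissue, differed as much but with far more scatter. In sham arteries of day 4 the values ran from 11.7 to 146.1 with a median of 19.55, and 4 of the 6 arrays lay under the intensity floor of 23.3. Left gel arrays of day 4 read 1464.4, 1418.1 and 867.9, all above every sham array. The difference was 4.99 ± 0.98 (adjusted p = 0.000427; 31.8-fold, interval 8.0 to 127). The floor of 79.2 that gave 3.79 is the 40th percentile of intensities.

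On day 1 Thbs4 was already well above the floor in sham arteries, at 151.6, 196.3, 497.9 and 403.1, and left gel arteries read 257, 154.1 and 238.3, within that range. Intact arteries spanned 10.3 to 77 with a median of 34. All 4 sham arrays of day 1 lay above all 6 intact arrays, a difference of 2.90 ± 0.89 that was not called (adjusted p = 0.141) and that had an adjusted p of 0.0183 without the 4 tPA arrays. Sham day 1 against intact called 0 of the 10 member probe sets by limma, where 0.944% of all probe sets were called. At an unadjusted p under 0.05 there was 1 of the 10, Thbs4, and 10.7% of all. The difference between sham day 4 and intact was 0.04 ± 0.80, with 0 of the 10 called by limma, where 0.378% of all were, and 0 at an unadjusted p under 0.05, where 10.1% of all were. The injury difference of Thbs4 by day was 5.39 ± 1.44 (adjusted p = 0.0351), and it missed the threshold under 14 of 25 alternatives, with adjusted p-values from 0.000658 to 0.177. Its size too depends on the floor, with 4.19 at the floor of 79.2. It rests on both groups: from day 1 to day 4 the mean log2 level went from 8.12 to 5.26 in sham arteries and from 7.72 to 10.25 in left gel arteries.

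Spp1 and Postn were well above the floor in every artery and rose by smaller factors. Spp1, a secreted phosphoprotein that binds integrins and CD44, read between 1373.7 and 2157.1 in sham arteries of day 4 with a median of 1612.1. Left gel arrays of that day read 5986.3, 4959.9 and 6656.6. No sham array reached the lowest of them, and the difference was 1.81 ± 0.46 (adjusted p = 0.0047; 3.51-fold, interval 1.83 to 6.73).

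Spp1 was also the member that was called on day 1. Left gel arrays of day 1 read 6582.4, 9515.9 and 6116.8 and sham arrays 2283.8, 2414, 1453.1 and 1256. All 3 injured arrays were more than double every sham array, and the difference was 2.03 ± 0.50 (adjusted p = 0.0163; 4.08-fold, interval 2.02 to 8.23). In that comparison 1 of the 10 probe sets was called, where 3.12% of all were. The call was lost without sham day 1 replicate 3 or 4 or left gel day 1 replicate 1 or 2, with adjusted p-values of 0.0521 to 0.0919, and when the most alike arrays were averaged (0.233). The test by day gave -0.22 ± 0.68 for Spp1 (adjusted p = 0.956), with an interval of -1.60 to 1.17.

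Postn, a secreted protein that binds collagen and integrins and is a marker of activated fibroblasts, ran from 1698 to 2968.5 in sham arteries of day 4, with a median of 2109.3. Left gel arrays of day 4 read 6195.2, 6062.4 and 7033, all above the sham range. The difference was 1.54 ± 0.33 (adjusted p = 0.000918; 2.90-fold, interval 1.83 to 4.59). On day 1 left gel arrays read 6764.3, 8626.3 and 6758.4 against 3390.3 to 4673 in sham arteries. These groups did not overlap either, but the difference of 0.95 ± 0.35 was not called (adjusted p = 0.151). Without the 4 tPA arrays, which enter this comparison through the shared spread alone, its adjusted p was 0.0409.

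**Figure D1:**
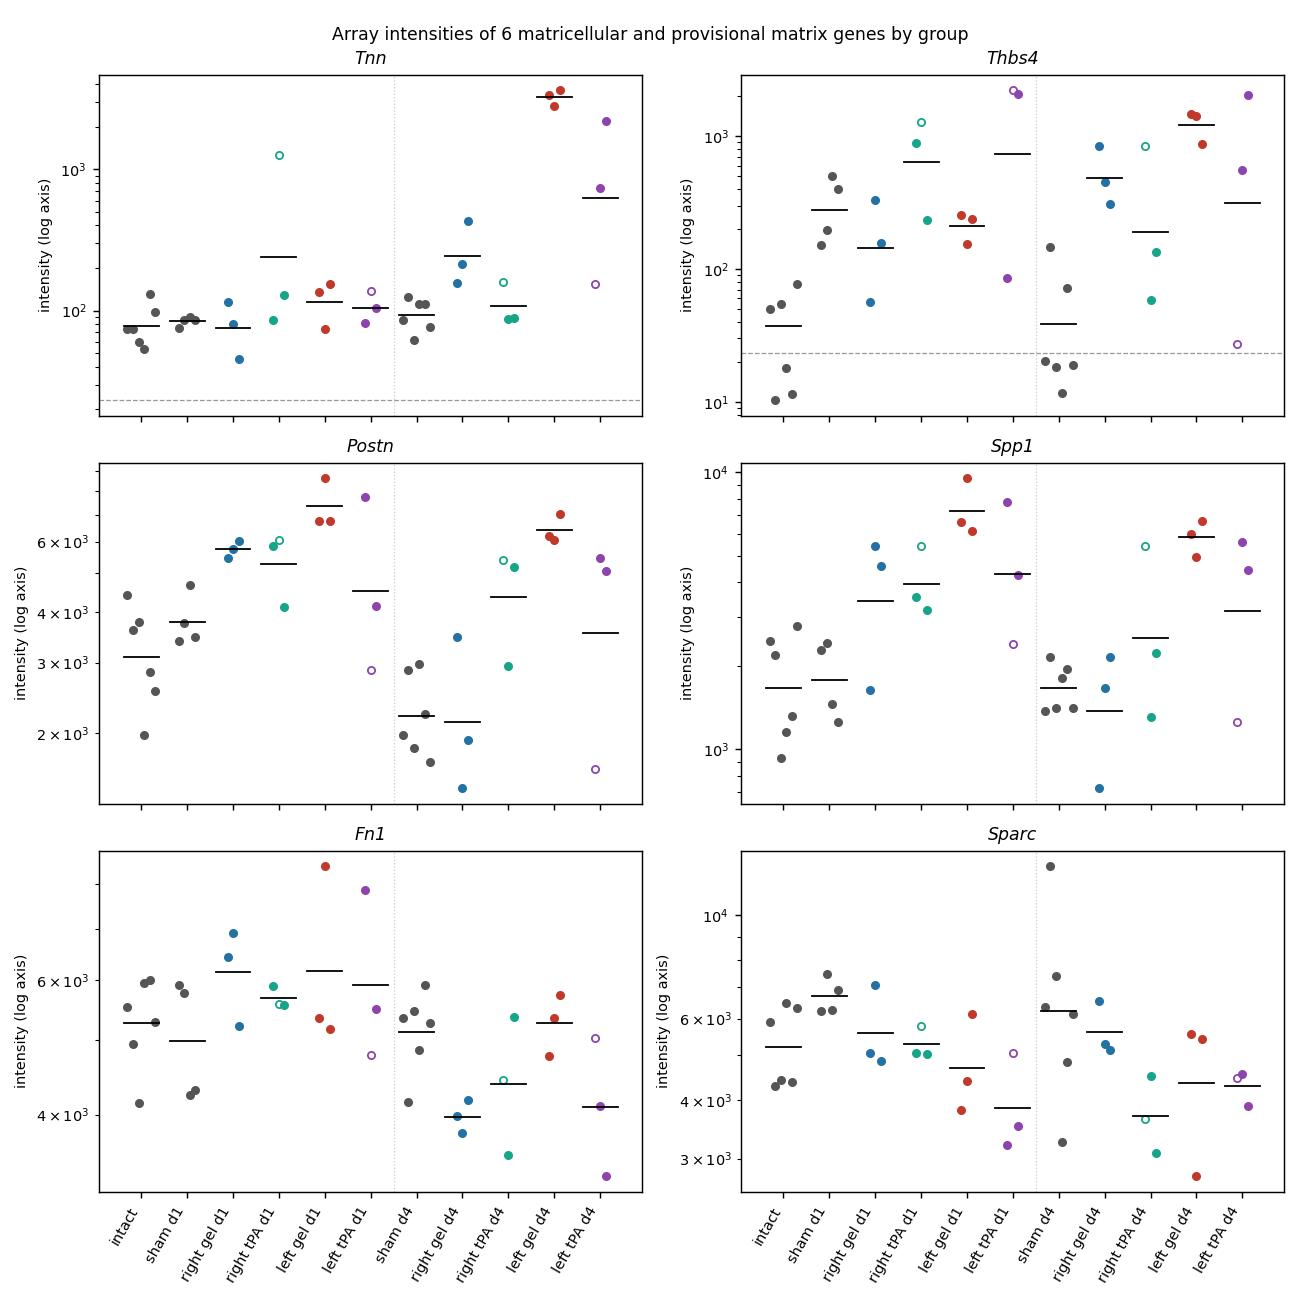
Intensity on a log axis for each of the 40 arrays (points) by group, with the geometric mean of the group as a black line, for the brightest probe set of each gene. Open points are the 4 tPA arrays set aside and the dashed line in the panels of Tnn and Thbs4 is the floor of 23.3. The 3 left gel arrays of day 4 sit between 2779.3 and 3624.4 for Tnn, above all other arrays, whereas Fn1 stays between 3322.5 and 8454.1 throughout.

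Fibronectin RNA differed little between left gel and sham arteries on its bright probe set. X05834_at, the bright Fn1 probe set, ran from 3322.5 to 8454.1 over the 40 arrays, a 2.54-fold range, and its group means differed by at most 0.63. Some groups did not overlap: right gel arrays ran from 5215.9 to 6918.2 on day 1 and from 3778.4 to 4176 on day 4. That difference between days was not tested. Left gel arrays of day 4 read between 4766.6 and 5733.4 and sham arrays between 4148.2 and 5907.9, which overlap. The difference was 0.04 ± 0.19 (adjusted p = 0.94), with an interval of -0.36 to 0.43. On day 1 it was 0.30 ± 0.21 (adjusted p = 0.579).

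The other Fn1 probe sets were dim, and nothing in the annotation used here says which part of the transcript they read. U82612cds_at had a mean intensity of 88.85, and U82612cds_g_at, X05831cds_at and M28259cds_at, all untested, had 47.53, 46.355 and 18.888. For U82612cds_at left gel arrays ran from 142 to 165.1 on day 4 and from 15.2 to 59.5 on day 1. Those groups did not overlap, and the difference between days was 2.06 ± 0.61 (adjusted p = 0.054). Without the 4 tPA arrays, which enter here through the shared spread alone, it was called (4.17-fold, adjusted p = 0.0342). The bright Fn1 probe set had a difference of -0.23 ± 0.23 between the same arrays.

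Sparc, a collagen-binding glycoprotein of remodelling matrix, was above the floor of 23.3 on every array for all 4 of its probe sets, which did not move together. The dimmest of them, rc_AA891204_s_at, ran from 65.4 to 2598.6. rc_AA946313_s_at ran from 2749.2 to 12762.8 over all arrays and rc_AA892248_at from 2335.3 to 9622.6, and neither was called in any of the 17 comparisons. Between left gel and sham arteries on day 4 their differences were -0.51 ± 0.28 (adjusted p = 0.213) and -0.22 ± 0.32 (adjusted p = 0.719).

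The other Sparc probe sets behaved as a pair of their own. Y13714_at and rc_AA891204_s_at had a correlation of 0.944 over the 40 arrays, whereas rc_AA946313_s_at and rc_AA892248_at had 0.193 with each other, and all points share arrays and scaling. On Y13714_at left gel arrays of day 1 read 978.6, 1059.3 and 892.4 and sham arrays 1561, 1595.1, 4363.5 and 4997.6. All injured arrays lay below all sham arrays, but the difference of -1.48 ± 0.56 was not called (adjusted p = 0.169), although it was without the 4 tPA arrays (0.0468). On day 4 the order was turned: left gel arrays ran from 2637.9 to 5648.3 and sham arrays from 1265.3 to 2499.3, a difference of 0.95 ± 0.52 (adjusted p = 0.221). The test by day gave 2.43 ± 0.77 for Y13714_at (adjusted p = 0.086) and 3.13 ± 1.10 for rc_AA891204_s_at (adjusted p = 0.136), and without the 4 tPA arrays these adjusted p-values were 0.0188 and 0.0311. The 4 Sparc probe sets thus give no single direction for the gene, and the cause of their disagreement was not tested.

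**Figure D2:**
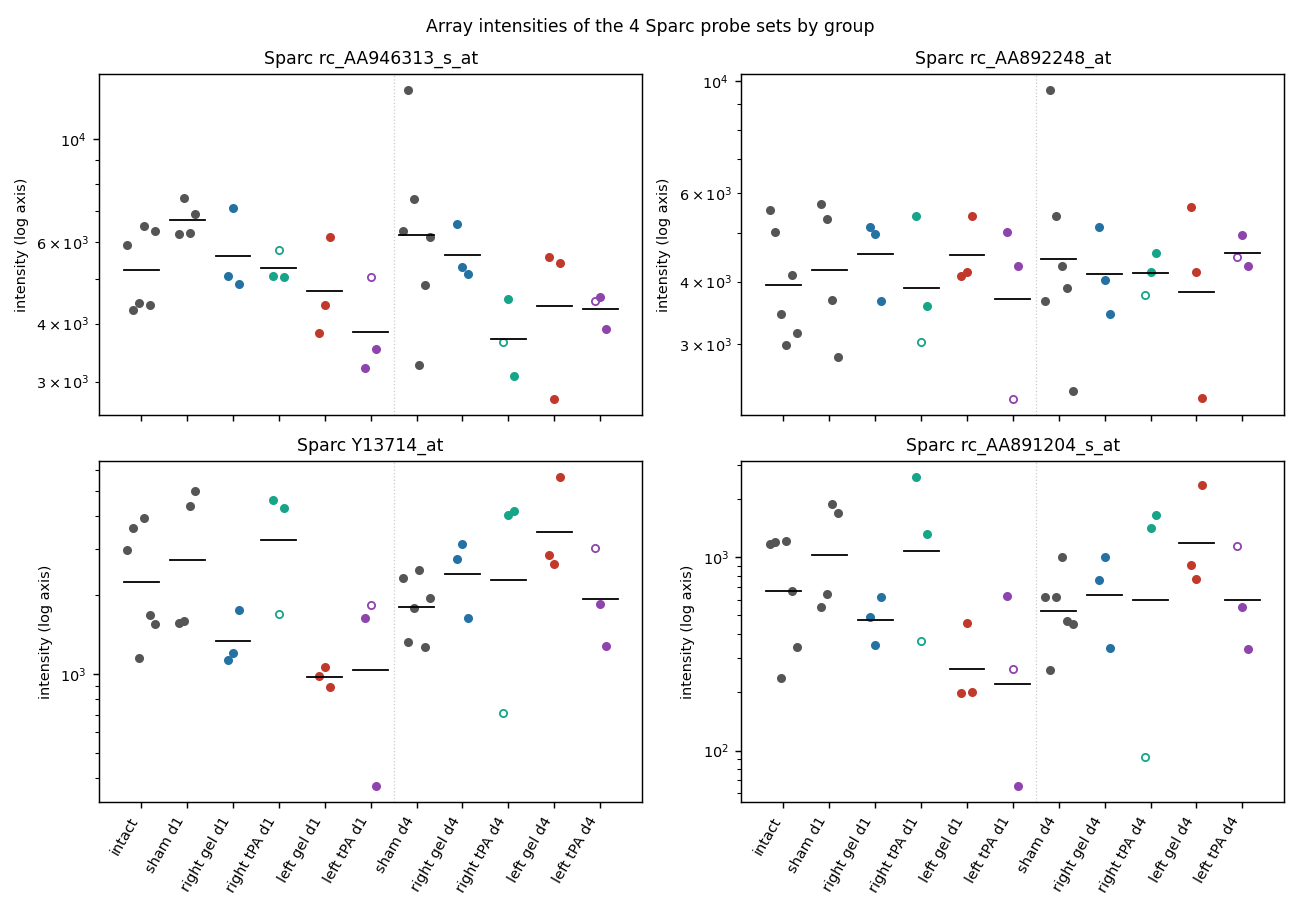
Intensity on a log axis for each of the 40 arrays by group on the 4 Sparc probe sets, with the geometric mean of each group as a black line and open points for the 4 tPA arrays set aside. On Y13714_at left gel arrays of day 1 sit between 892.4 and 1059.3 and those of day 4 between 2637.9 and 5648.3, while the upper panels show no such step.

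Uninjured right carotids of gel-treated animals had more Thbs4 than sham arteries on day 4. Right gel arrays of day 4 read 837.8, 450.2 and 307.3 for Thbs4, all above the 6 sham arrays. The difference was 3.67 ± 0.98 (adjusted p = 0.0149; 12.8-fold, interval 3.20 to 50.8), and it had an adjusted p of 0.0857 without right gel day 4 replicate 1. With the floor of 79.2 the difference was 2.48. Of the 10 member probe sets this 1 was called, where 8.82% of all were.

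The other genes were not called between right gel and sham arteries of day 4. Right gel arrays of day 4 read 156.4, 213 and 430.9 for Tnn, above the sham maximum of 125, with a difference of 1.39 ± 0.58 that was not called (adjusted p = 0.142) and that had an adjusted p of 0.00704 without the 4 tPA arrays. Postn differed from sham by -0.05 ± 0.33 and Spp1 by -0.27 ± 0.46 on that side. On day 1 right gel against sham called 0 of the 10 by limma, where 0.927% of all were called, and 0 had an unadjusted p under 0.05, where 12.6% of all did.

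Set directly against the right side, left gel arteries of day 4 had more Tnn, Spp1 and Postn. In this comparison 3 of the 10 were called, all higher, where 5.1% of all were. Tnn differed by 3.74 ± 0.67 (13.3-fold, adjusted p = 0.00179), Spp1 by 2.08 ± 0.53 (4.24-fold, adjusted p = 0.0185) and Postn by 1.59 ± 0.38 (3.00-fold, adjusted p = 0.0106). The call of Postn was lost without right gel day 4 replicate 2 or 3 (adjusted p = 0.0795 and 0.0625) and in a fit of these groups alone that blocked on replicate number (0.053), and that of Spp1 without right gel replicate 1 or left gel replicate 1 or 3 (0.0655 to 0.119). Thbs4 differed by 1.32 ± 1.13 (adjusted p = 0.618). In the same arrays macrophage markers were higher on the left for 1 of 8 (summed intensity 16290 to 19810 against 8806 to 14380) and lymphocyte markers for 2 of 7 (3299 to 3590 against 825.9 to 1108). Markers of Schwann cells and nerve were lower for 3 of 10 (5630 to 7568 against 8605 to 19110), and the actin 3'/5' ratio was 7.38 to 8.09 against 11.68 to 13.61. On day 1 left gel against right gel called 0 of the 10 by limma, where 0.549% of all were called, and 0 had an unadjusted p under 0.05, where 16.3% of all did.

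Under tPA the injured arteries of day 4 were scattered from array to array. Tnn read 153.3, 734.1 and 2199.5, Thbs4 27.1, 557.3 and 2034.7, and Postn 1632.5, 5450.8 and 5079.2. Spp1 read 1252.2, 5608.6 and 4444.5. In each of the 4 genes the lowest value was that of replicate 1, the array nearest to the sham group over all probe sets, and for Thbs4, Postn and Spp1 that value lay inside or below the sham range.

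Against sham, left tPA arteries of day 4 differed for Tnn by 2.76 ± 0.58 (6.78-fold, interval 2.98 to 15.4, adjusted p = 0.0101), the 1 member probe set called where 5.87% of all were. Without left tPA replicate 2 or 3 this call was lost (adjusted p = 0.0707 and 0.208), as it was in a fit of the compared groups alone (0.0881) and in such a fit with the replicate number as a block (0.36). Without the 4 tPA arrays, 4 of the 10 were called, all higher, where 18.1% of all were: Tnn by 3.78 ± 0.40 (adjusted p = 9.32e-08), Thbs4 by 4.80 ± 0.86 (0.000209), Postn by 1.25 ± 0.31 (0.0053) and Spp1 by 1.59 ± 0.43 (0.00969). These are the genes called in left gel arteries. The left tPA array left out here, replicate 1, was set aside by its measured values and was the lowest for each of these genes. That the same genes were called is therefore no independent support. With all 3 tPA arrays kept, macrophage markers were higher than in sham for 4 of 8 (summed intensity 6027 to 13910 against 2908 to 5624) and lymphocyte markers for 3 of 7 (812.7 to 4156 against 476.2 to 733.8), and contractile smooth muscle markers were lower for 2 of 9 (18460 to 31790 against 31890 to 48780).

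Between tPA and plain gel on the injured side 0 of the 10 member probe sets was called by limma on either day. On day 4, 0.12% of all probe sets were called, and 2 of the 10 had an unadjusted p under 0.05, where 7.77% of all did. The differences were -2.37 ± 0.67 for Tnn (adjusted p = 0.171), -1.96 ± 1.13 for Thbs4, -0.85 ± 0.38 for Postn and -0.89 ± 0.53 for Spp1. All 3 tPA arrays lay below all 3 gel arrays for Tnn and Postn. Without the 4 tPA arrays the differences were -1.35 ± 0.44 for Tnn, -0.19 ± 0.96 for Thbs4, -0.29 ± 0.35 for Postn and -0.22 ± 0.48 for Spp1, again with 0 of the 10 called by limma, where 0.36% of all were called, and 3 at an unadjusted p under 0.05, where 9.22% of all were. The interval for Tnn then ran from -2.26 to -0.44. Without left tPA day 4 replicate 3 in place of these arrays, Tnn was called lower by tPA (-3.27, adjusted p = 0.0282), where its other alternatives gave adjusted p-values up to 0.672.

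On day 1 the left tPA arrays read 81.2, 138.2 and 103.5 for Tnn, 7757.2, 2878.7 and 4140.4 for Postn and 7772.3, 2401.2 and 4270.8 for Spp1. Replicate 2 was the lowest of the 3 for Postn and Spp1. Thbs4 read 84.8, 2228.9 and 2069.7, with replicate 1 far below the other two. Against gel, 0.12% of all probe sets were called, and 1 of the 10 had an unadjusted p under 0.05, where 13.3% of all did. Without the 4 arrays limma called 0 of the 10 and 1.97% of all, with 1 of the 10 at an unadjusted p under 0.05, where 14.2% of all were. The test of the tPA difference by day called 0 of the 10 by limma and 0.0858% of all, with 3 of the 10 at an unadjusted p under 0.05, where 12.5% of all were.

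Left tPA arteries of day 1 against sham called 0 of the 10 by limma, where 4.43% of all were called. At an unadjusted p under 0.05 there were 4 of the 10 and 21.9% of all. Without the 4 arrays 3 of the 10 were called where 11.7% of all were. These were Spp1, higher by 1.69 ± 0.46 (adjusted p = 0.0128), and the paired Sparc probe sets Y13714_at and rc_AA891204_s_at, lower with differences of -1.80 ± 0.52 (0.0216) and -2.34 ± 0.73 (0.0327). Left tPA day 1 replicate 3, kept in this fit, had an actin 3'/5' ratio of 2.80, against 9.10 on replicate 1 and 16.26 to 21.11 in sham arrays of day 1.

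Left against right tPA arteries called 0 of the 10 on both days by limma. Of all probe sets 0.0172% were called on day 1 and 0.0343% on day 4. At an unadjusted p under 0.05 there were 2 of the 10 on day 1, where 9.46% of all were, and 1 on day 4, where 7.53% were. Among the right tPA arrays, day 1 replicate 2 had a Tnn intensity of 1255.9, against 85.1 and 128.4 for the other two, and day 4 replicate 1 had Spp1 at 5428.8 against 1313.6 and 2224.3. Without the 4 arrays, which leaves 2 arrays in each tPA group, Tnn and Thbs4 were called higher on the left on day 4 (3.86 ± 0.49, adjusted p = 6.6e-06, and 3.58 ± 1.05, adjusted p = 0.0432), where 4.99% of all were called. On day 1 the 2 paired Sparc probe sets were called lower on the left, with differences of -2.51 ± 0.60 (adjusted p = 0.00957) and -3.19 ± 0.84 (adjusted p = 0.0196), where 5.85% of all were called. The arrays left out were set aside by their measured values, and left tPA day 4 replicate 1 was the lowest left array for Tnn and Thbs4. These calls therefore describe the remaining arrays only and are no independent support for a difference between sides.

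**Figure D3:**
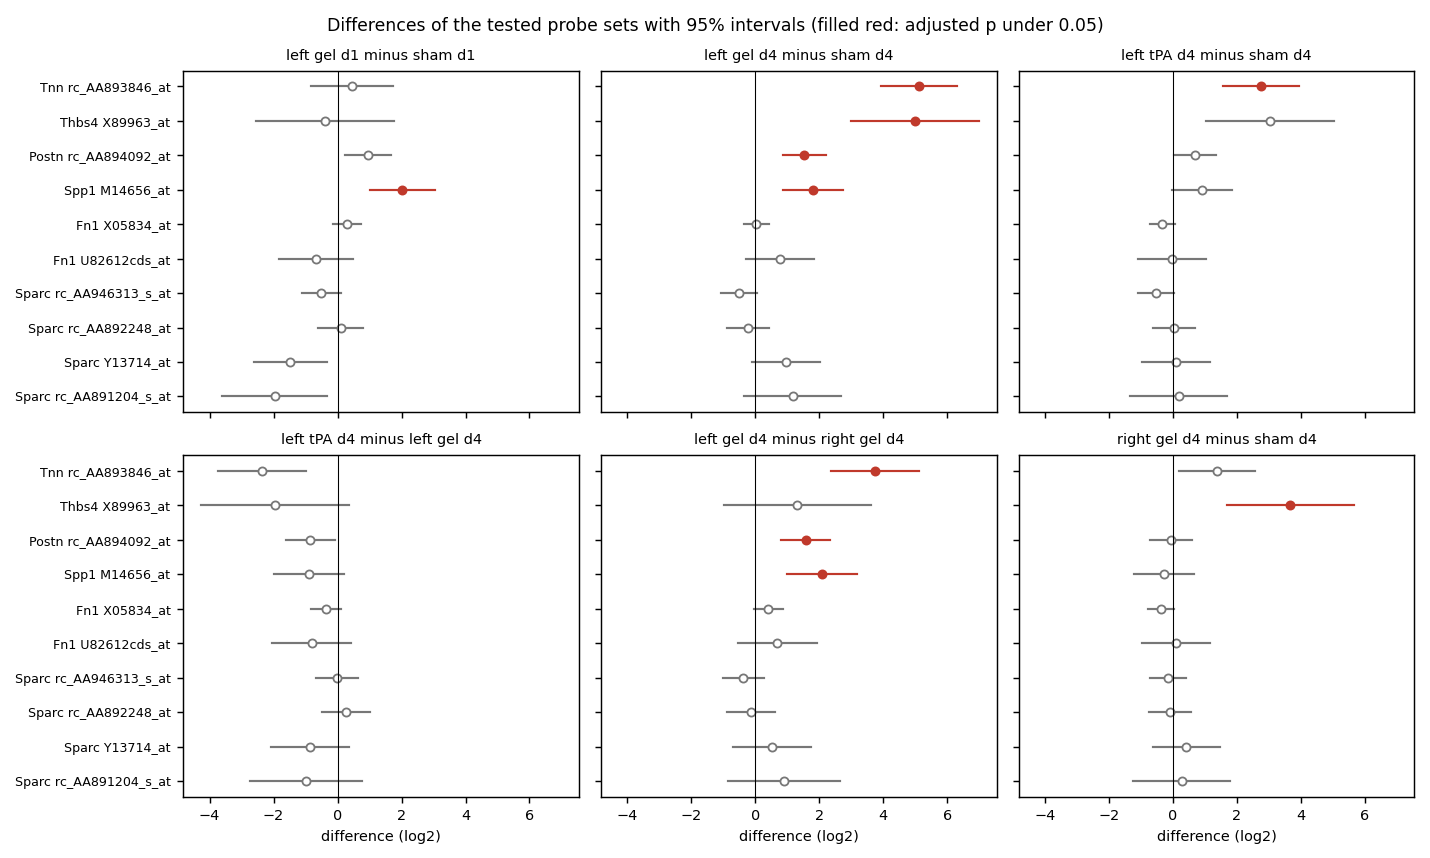
Differences on the log2 scale of the 10 tested probe sets in 6 comparisons, with 95% intervals from limma and calls in filled red. Tnn, Thbs4, Postn and Spp1 are called between left gel and sham arteries of day 4, and no probe set is called between left tPA and left gel arteries of that day.

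Ordered by group mean, the members followed different courses. For Tnn the highest level was that of left gel day 4 (geometric mean 3238), followed by left tPA day 4 (627.9) and right gel day 4 (243). The first step was the only one between neighbouring groups at which the arrays did not overlap. For Thbs4 left gel day 4 was also highest (1217), followed by left tPA day 1 (731.4), and intact was lowest (37.19), with overlap between neighbours at every step. For Postn and Spp1 left gel day 1 came first (7333 and 7263) and left gel day 4 second (6416 and 5825), and right gel day 4 was lowest (2137 and 1374). Among neighbours in those 2 orders, only left gel day 4 and right gel day 1 did not overlap, for Postn.

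Postn and Spp1 followed each other over the groups and arrays, with a correlation of 0.906 over the 11 group means and 0.761 over the 40 arrays. Tnn and Thbs4 had 0.633 over group means, and Tnn with Postn 0.228. These are descriptions of points that share arrays and scaling. The genes most like Tnn over the 11 group means were Crabp1, a retinoic acid binding protein (0.98), Cd82, a tetraspanin (0.95), and Capn6, a calpain family member (0.94). Those most like Thbs4 were Mgst2, Pygl and Xdh (all 0.93), of which Pygl is glycogen phosphorylase and Xdh xanthine dehydrogenase. For Postn they were Vcam1, an adhesion receptor of leukocytes (0.93), Tsr2 (0.91) and Hnrnpf (0.89), and for Spp1 the gelatinase Mmp9, Kpnb1 and Vcam1 (all 0.91). Fn1 came with Anxa2 (0.89), Ube2j2 and Prp2l1 (both 0.84), and Sparc with the guanylate cyclase subunit Gucy1a1, the calcium channel subunit Cacna2d1 (both 0.83) and Mobp (0.81).

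**Figure D4:**
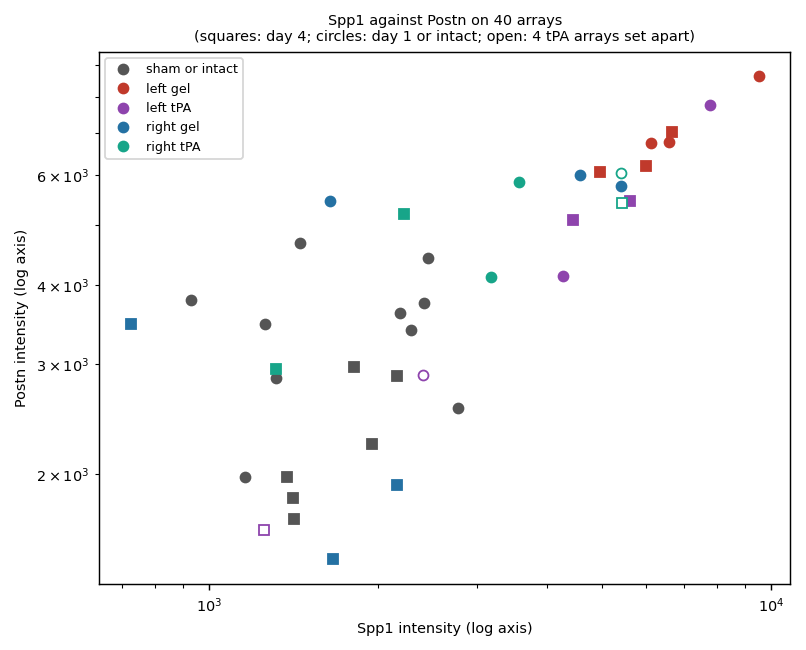
Spp1 against Postn intensity on log axes for the 40 arrays, with colours for the kinds of artery, squares for day 4, and open symbols for the 4 tPA arrays set aside. All 6 left gel arrays sit at the upper right, at Spp1 of 4959.9 or more and Postn of 6062.4 or more.

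The partners of these proteins were read on the brightest tested probe set of each gene, again between left gel and sham arteries of day 4. Of the other matricellular genes 5 were tested: 0 were higher and 1 was lower, Fbln5, an elastic fibre protein (-0.81 ± 0.28, adjusted p = 0.0394). Tnc, the best known tenascin of injured vessels, had a difference of 0.32 ± 0.46 (adjusted p = 0.719). On day 1 the list again had 1 lower gene, Ccn1, a heparin-binding matricellular protein (-1.76 ± 0.45, adjusted p = 0.0249).

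Among 4 tested partners of the provisional matrix, Vcan, the hyaluronan-binding proteoglycan versican, was higher (1.19 ± 0.36, adjusted p = 0.0173) and F13a1, the fibrin-crosslinking factor XIII subunit, was lower (-1.32 ± 0.37, adjusted p = 0.00934). Of 12 matrix receptors 3 were higher and 3 lower. The hyaluronan and osteopontin receptor Cd44 (2.55 ± 0.55, adjusted p = 0.00104), the thrombospondin receptor Cd47 (1.98 ± 0.38, adjusted p = 0.000349) and the syndecan Sdc1 (1.36 ± 0.41, adjusted p = 0.0167) were the higher ones. The integrin subunits Itga8 (-2.51 ± 0.53, adjusted p = 0.000807) and Itga7 (-1.87 ± 0.34, adjusted p = 0.000186) and the collagen receptor Ddr2 (-1.43 ± 0.44, adjusted p = 0.0191) were the lower ones. On day 1 Cd44 was the 1 receptor called (2.25 ± 0.59, adjusted p = 0.0286).

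Of 13 collagen and crosslinking genes 1 was higher, Col12a1, a fibril-associated collagen (2.83 ± 0.41, adjusted p = 2.32e-05). The fibrillar collagen Col1a1 had a difference of -0.49 ± 0.22 (adjusted p = 0.132). On day 1 Col1a2 was called higher (6.83 ± 1.88, adjusted p = 0.0366) from a probe set whose sham mean was 5.29 on the log2 scale on day 1 and 11.99 on day 4. Of 15 proteases and inhibitors 6 were higher and 2 lower on day 4. The elastase Mmp12 (3.58 ± 0.69, adjusted p = 0.000358), the urokinase receptor Plaur (2.66 ± 0.49, adjusted p = 0.000243), urokinase Plau (2.29 ± 0.40, adjusted p = 0.000146) and Plat, the gene of endogenous tPA (1.83 ± 0.36, adjusted p = 0.00045), were among the higher ones.

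Of 10 inducers, growth factors and their receptors, 3 were higher and 1 lower. Il1b rose by 4.62 ± 0.79 on day 4 (adjusted p = 0.000128) and by 4.08 ± 0.85 on day 1 (adjusted p = 0.00569). The angiotensin receptor Agtr1a rose by 1.76 ± 0.43 (adjusted p = 0.00328) and the PDGF receptor Pdgfra by 1.72 ± 0.51 (adjusted p = 0.0148) on day 4, and Tgfb3 fell by 1.35 ± 0.27 (adjusted p = 0.000468). The median difference on day 4 was 0.68 for the proteases, -0.08 for the inducers, -0.14 for the receptors and -0.28 for the collagens, against 0.0181 over all tested probe sets.

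**Figure D5:**
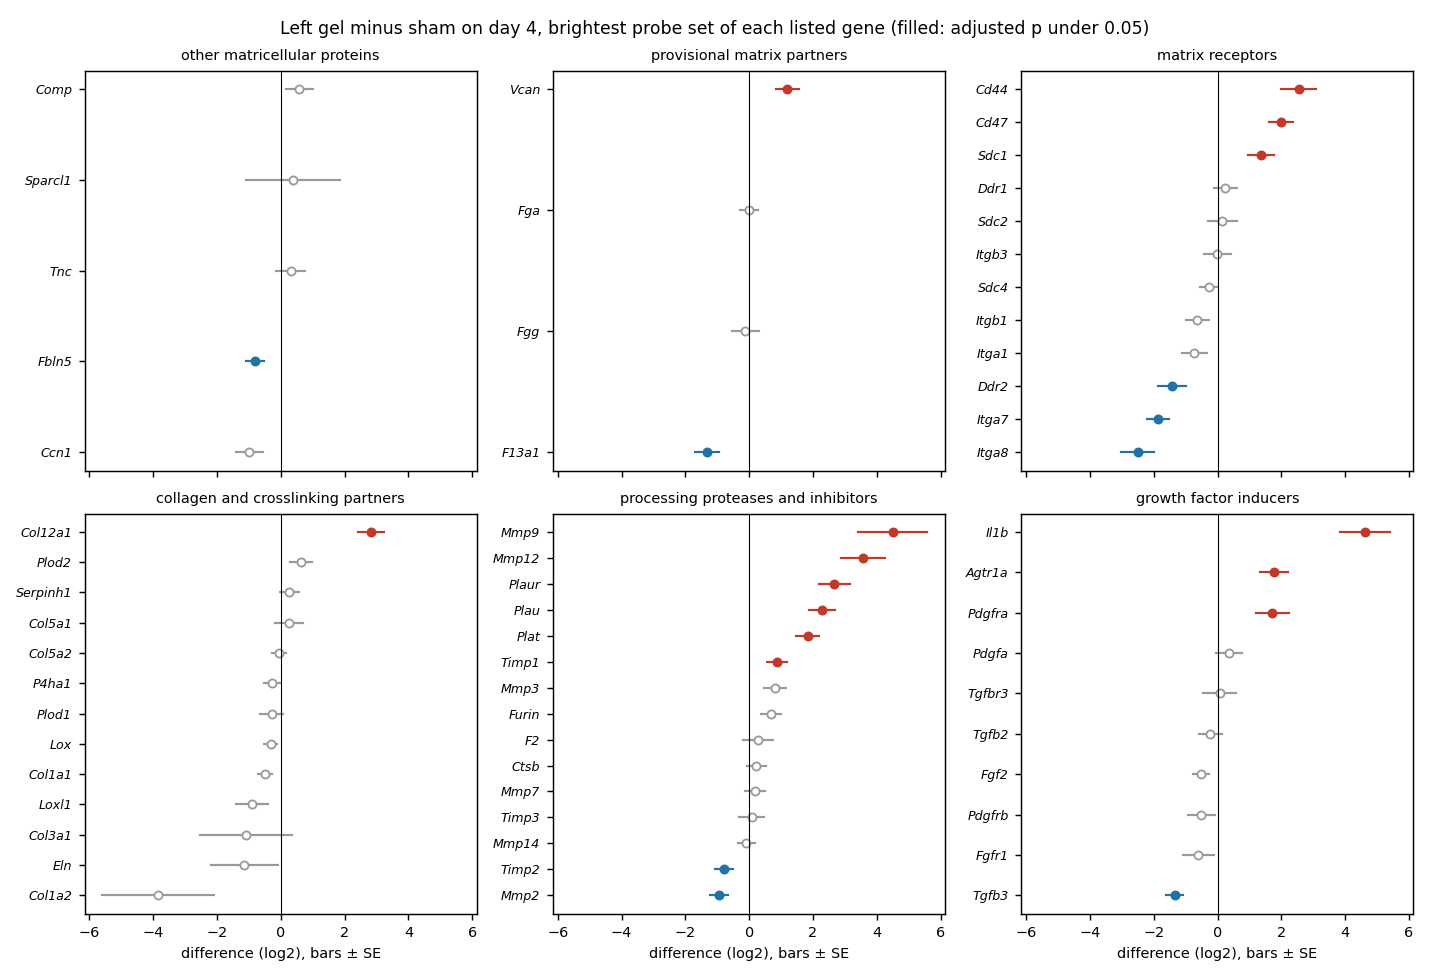
Differences between left gel and sham arteries of day 4 on the log2 scale with standard errors, for the brightest probe set of each tested gene in 6 lists of partners. Filled points passed an adjusted p of 0.05, red when higher and blue when lower; 6 of 15 proteases and inhibitors were higher, and 1 of 13 collagen genes.

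Markers of cell types moved in the same arrays. Macrophage markers were higher in left gel than in sham arteries of day 4 for 6 of 8 tested genes, with a summed intensity of 16290 to 19810 against 2908 to 5624, and lymphocyte markers for 5 of 7 (3299 to 3590 against 476.2 to 733.8). Contractile smooth muscle markers were lower for 5 of 9 (18320 to 19980 against 31890 to 48780), and fibroblast markers were higher for 2 of 5 (22450 to 28560 against 13800 to 19600). Of the genes named above, Pdgfra is in both the fibroblast and the inducer list, and Itga7 in both the smooth muscle and the receptor list. The actin 3'/5' ratio, a measure of RNA integrity, was 7.38 to 8.09 in left gel arrays of day 4 and 11.83 to 23.69 in sham arrays.

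Other marker lists moved beside the smaller results. In left gel arteries of day 1, beside the Spp1 difference, skeletal muscle markers were higher for 6 of 10 (summed intensity 24590 to 44980 against 3336 to 4799 in sham) and macrophage markers for 1 of 8 (13240 to 14920 against 7526 to 8523). In right gel arteries of day 4, beside the Thbs4 difference, markers of Schwann cells and nerve were higher for 5 and lower for 2 of 10 (8605 to 19110 against 6538 to 8617), adipocyte markers were higher for 3 of 6 (7327 to 13480 against 3777 to 5854) and macrophage markers for 2 of 8 (8806 to 14380 against 2908 to 5624). Adipocyte markers were also higher for 2 and lower for 1 of 6 in left gel arteries of day 4 (9376 to 12760). Skeletal muscle markers varied between the right gel arrays of day 4. Their summed intensity was 24900, 7122 and 3588 on replicates 1, 2 and 3, against 4396 to 6945 in sham. In none of the 8 lists did a marker lie at the floor on every array. The part of these cell types and of RNA integrity in the differences of the members was not tested.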

How the data were processed

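The authors deposited 1 linear intensity per probe set and array, scaled so that the trimmed mean is nearly the same on every array (500.3 to 500.8 when 2% is trimmed at each end). The sources used here name no software or summary method. All columns of the deposited table name a sample, so 0 were left unassigned. Of 8799 probe sets 59 controls were set aside. A floor was set at 23.3, the 20th percentile of all intensities, log2 was taken, and the 2913 probe sets with the lowest mean log2 were left out. The remaining 5827 were fitted with limma 3.58.1 in R 4.3.3 (lmFit and eBayes) on the means of the 11 groups over all 40 arrays, with Benjamini-Hochberg adjustment over all tested probe sets in each of 17 comparisons. The fit was tested on simulated data. The number of arrays, 3 to 6 a group, limits the precision.

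Gene symbols come from the platform annotation: 7006 probe sets have 1 symbol, 308 several and 1426 none. Named are all member probe sets, up to 4 genes of each partner list with the smallest adjusted p among those called between left gel and sham arteries on each day, and the 3 genes most like each member; Sdc1, Ddr2, Tnc and Col1a1 were chosen after their values were seen. Members and lists were chosen with earlier results of these data known. Same-numbered arrays deviated together (every correlation over 0.1) in 1 of 15 comparisons, that of right gel and sham arteries of day 1. The block, fitted with only the groups compared, changed no member call there, but over all probe sets 12 were called in place of 54. The labels name no shared animals. Alternatives were quantile and median scaling, other filters and floor, only the groups compared, the replicate block, arrays left out, and, added after seeing the data, averaging of the most alike arrays.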

Additional observations from a re-analysis of the deposited data

Results flagged for a closer look

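The injury difference (left gel minus sham) was larger on day 4 than on day 1 for Tnn by 4.66 on the log2 scale (limma adjusted p = 0.00159) and for Thbs4 by 5.39 (adjusted p = 0.0351), each tested as an interaction. The Thbs4 difference was 4.19 with the floor at the 40th percentile of intensities, and its call missed the threshold under 14 of 25 alternatives. For Thbs4 the sham level itself fell from day 1 to day 4 (mean log2 8.12 and 5.26), while left gel rose (7.72 and 10.25). For Tnn the sham level was 6.39 and 6.53.

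In intact arteries the dim Fn1 probe set U82612cds_at had 1 array far below the other five, replicate 3 at an intensity of 26.2, with a gap of 0.699 of the range of the group. It was the 1 flag among 30 checks, made for the 10 tested probe sets in the intact and sham groups, and chance flags about 1 in 20. The gel and tPA groups, with 3 arrays each, were not checked.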

How the results depend on the processing

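The 4 calls between left gel and sham arteries of day 4 held under all 18 alternatives. Counts of called member probe sets changed as follows. Without the 4 tPA arrays set aside they were 1 for sham day 1 against intact, 3 for left gel against sham on day 1, 3 (day 1) and 4 (day 4) where left tPA and sham were compared, 2 and 2 for left against right tPA on the 2 days, 2 for right gel against sham on day 4, 3 for left gel between days and 4 for the injury difference by day. With only the groups compared they were 1, 2 and 0 for sham day 1 against intact, left gel against sham on day 1 and left tPA against sham on day 4, and 2, 4 and 4 for right gel against sham on day 4, left gel between days and the injury difference by day. The replicate number as a block was fitted with only the groups compared and without unpartnered arrays, so its counts join these choices: they were again 1 for sham day 1 against intact (Thbs4) and 0 for left tPA against sham on day 4, and Postn was lost between left and right gel on day 4 (adjusted p = 0.053), though not with only the groups compared. No other member call of the fit over all groups changed under the block. Median scaling gave 1 for left tPA against sham on day 1, leaving out 50% of the probe sets gave 2 for left tPA against sham on day 4, no filter gave 1 for the injury difference by day, and averaging the most alike arrays gave 0 for left gel against sham on day 1 and 1 for the injury difference by day.

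Leaving out 1 array at a time gave 0 to 1 calls for left gel against sham on day 1, 0 to 4 for left tPA against sham on day 4, 0 to 1 for tPA against gel on day 4, for left against right tPA on day 4 and for right gel against sham on day 4, 1 to 2 for left gel between days and 1 to 2 for the injury difference by day. Differences near 0 changed sign without being called. Fn1 between left gel and sham on day 4 was -0.060 with median scaling and -0.025 to 0.11 with arrays left out. Between tPA and gel, Tnn on day 1 was 0.024 with the most alike arrays averaged and -0.46 to 0.070 with arrays left out, and Fn1 on day 1 was 0.095 without the 4 tPA arrays and -0.27 to 0.17 with arrays left out. Sparc (rc_AA946313_s_at) between tPA and gel on day 4 was 0.11 with quantile normalization, 0.021 with median scaling and -0.35 to 0.16 with arrays left out. The causes were not tested. Over all probe sets, calls between left gel and sham on day 4 numbered 1117, with 691 (block and only the groups compared) and 1310 without the 4 tPA arrays as the lowest and highest of the alternatives. For left gel against sham on day 1 they numbered 182, with 1 (most alike arrays averaged) to 459 (only the groups compared). For left tPA against sham on day 4 they numbered 342, with 0 (block and only the groups compared) to 1053 (without the 4 tPA arrays). Scaling all arrays to one median moved the median difference of all probe sets by -0.297 to 0.262, and by -0.097 between left gel and sham on day 4. For 32 differences of the brightest probe sets (left gel against sham and tPA against gel on both days, and the other called ones), 483 of the alternative values kept direction and call, 30 lost a call, 3 gained one and 14 changed sign. With all tested probe sets averaged in place of the brightest, Fn1 in left gel day 4 had a mean log2 level of 9.80 in place of 12.36 and Sparc 11.49 in place of 12.09.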
